A study of Mus musculus with 9 samples.

Results

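The comparison set both Ras-transformed mouse fibroblast lines of the series against both samples of primary mouse embryonic fibroblasts (MEF), so it used 4 of the 9 arrays, with 2 arrays a group. The members were taken by their labels, and no measured value chose them. The first Ras line, called the Ras MEF line here, was made from wild-type MEF that had become immortal without treatment and then received an active Ras mutant by retrovirus. The second, NIH3T3-HRasV12, was the immortal mouse fibroblast line NIH3T3 transformed by a retrovirus for the active mutant HRasV12; the lines do not carry the same Ras gene. The first primary sample, Fbx15-null MEF, came from E13.5 embryos that lack Fbx15, a gene of pluripotent cells. The second was Fbx15 bgeo-KI MEF, which carry a reporter and drug resistance cassette in that gene; it had received the 4 reprogramming factors by retrovirus, but no G418 was added and no iPS clones were seen. No normal control shared the origin of either Ras line: immortality, the Ras mutant, cell source and Fbx15 genotype all divide the groups and cannot be told apart. Of the 4 samples, only Fbx15-null MEF has no retrovirus in its labels. The other 5 arrays held ES and iPS cells.

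Ras proteins relay signals from receptor tyrosine kinases to the MAPK cascade, which switches on cyclin D1, Fos and Ets family transcription factors, and also its own brakes, the dual-specificity phosphatases and Sprouty proteins. Fibroblasts transformed by active Ras are known for growth with little serum or anchorage, for loss of actin stress fibres and for making less extracellular matrix. Primary MEF, by contrast, are a mixed culture of embryonic connective tissue cells that divide a limited number of times.

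Levels are given on the log2 scale as signal over the array's 75th percentile, so 0 is that percentile, and the lowest level read was the floor of -4.78. Each sample was hybridised once, so the spread within a group is that between unlike cell preparations, and p-values rest on 2 residual degrees of freedom. Over 13339 probes tested, limma called 0 (0%) at an adjusted p under 0.05, the smallest adjusted p was 0.0743, and 1914 probes had an unadjusted p under 0.05. Other settings called from 0 to 206 probes in either direction on the 4 arrays alone, and 361 higher and 502 lower when all 9 arrays shared an estimate of the spread. Because no probe passed, levels are compared by separation: a probe was separated when the lower of its brighter pair of arrays exceeded the higher of the dimmer pair by at least 1 on the log2 scale, with both bright arrays well above background. An exact permutation test of 2 against 2 cannot give a p under 0.33. Counts without an array are given for many lists where they differ by over 1.5 times, though not for every such change. They are mostly larger because a group of 1 array is separated more easily. Matrix proteins, collagens and interferon genes, given below with 0 higher members, each had some higher members when 1 array was left out.

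Separated probes were more often lower than higher in the Ras lines at a gap of at least 1. Of the 13339 probes, 376 (2.82%) were separated as higher and 955 (7.16%) as lower, while the median difference over all of them was 0.01. By gene, using the brightest probe, 299 of 10648 (2.81%) were higher and 842 (7.91%) lower. The low levels often reached background: 425 of the 955 lower probes (44.5%) were not well above background on either Ras array, whereas 49 of the 376 higher probes (13%) were in that state on both MEF arrays. The split moved with scaling: quantile normalization gave 654 higher and 794 lower, so that higher probes made up 45.2% of the separated ones in place of 28.2%. It turned with the gap: counting every probe whose groups did not overlap at all gave 3294 higher and 2586 lower, and 6947 of the 13339 probes had the higher mean in the Ras lines against 6392 in MEF. In the plot of mean levels, the lower genes form a long row along the floor and the higher genes a narrow band above the diagonal.

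**Figure D1:**
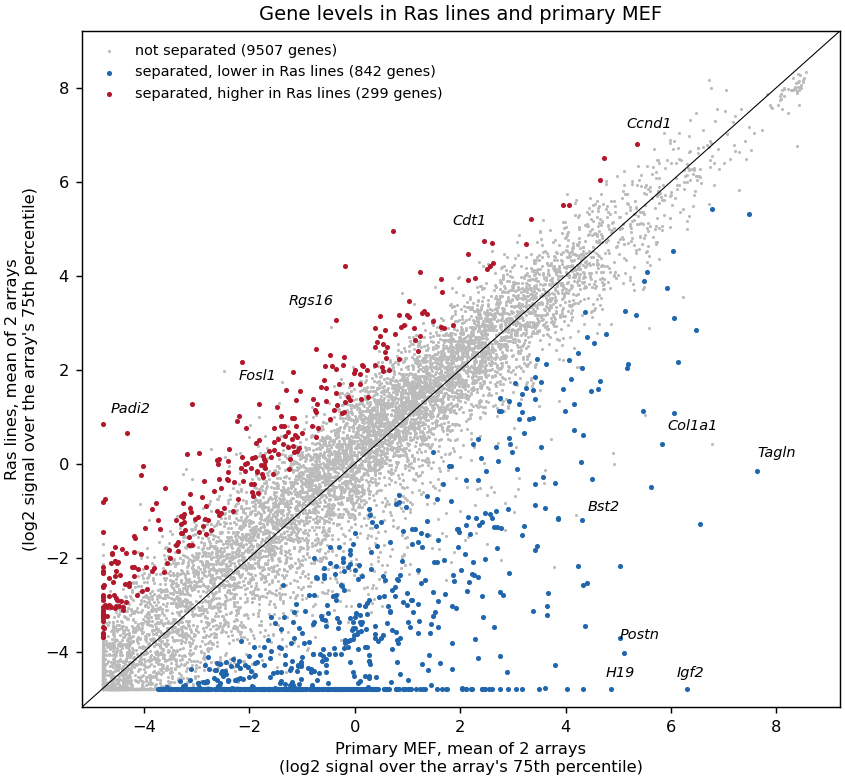
Mean log2 level of each gene in the 2 Ras lines against its mean in the 2 primary MEF samples, relative to each array's 75th percentile. Red points are the 299 genes separated as higher in the Ras lines, blue points the 842 separated as lower, and the line marks equal levels.

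Each Ras line showed the excess of lower probes against each MEF sample. Against Fbx15-null MEF, the Ras MEF line had 166 probes (1.24%) at least 5-fold higher and 866 (6.49%) at least 5-fold lower. Its counts against the unselected 4-factor MEF were 516 (3.87%) and 1266 (9.49%). For NIH3T3-HRasV12 they were 201 (1.51%) and 719 (5.39%) against Fbx15-null MEF, and 463 (3.47%) and 1175 (8.81%) against the unselected MEF. At a difference of at least 2-fold the excess was smaller. The Ras MEF line had 13.2% higher and 15.7% lower against Fbx15-null MEF, and 20.5% and 21.9% against the unselected MEF. In the same order, NIH3T3-HRasV12 had 10.9% and 14.3%, then 19.4% and 20.5%. The unselected MEF sample therefore stood farther from both lines. It was also the dimmest array, with a 75th percentile of 167 signal units against 214, 274 and 219 on the other 3. More gene probes were at the floor on the Ras arrays, 49.3% and 48.4%, than on the MEF arrays, 42.8% and 44.9%. Both Ras arrays were scanned together and the MEF arrays in separate scans, so scan and group cannot be told apart.

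The labels were first checked against marker genes. Vimentin (Vim), the intermediate filament of mesenchymal cells, stood at 6.46 and 6.82 in the Ras lines and 6.07 and 6.60 in the MEF samples. All 4 were alike and bright at this gene, which was chosen after its values were seen. The 12 fibroblast markers were well above background in 10 cases in the Ras MEF line and in 12 on each other array. However, 4 of them (33.3%) were separated as lower, and by mean 9 were lower and 3 higher in the Ras lines. Their median level was 1.07 in the Ras MEF line and 2.36 in NIH3T3-HRasV12, against 3.54 and 4.74 in the MEF samples. Macrophage markers marked the unselected MEF: their summed level was 10.2 there against 1.01 in Fbx15-null MEF and 0.417 and 2.11 in the Ras lines, where 1 is the 75th percentile signal. Ptprc and Itgam, which define leukocytes, were at the floor on all 4 arrays, while Lyz2, Adgre1, Tyrobp and Cd68 were 4 of 8 tested members separated as lower in the Ras lines. Of the epithelial markers, 3 of 11 were lower (Krt18, Krt8 and Dsp), and of the endothelial 1 of 5 (Egfl7). Of the neural and glial, 3 of 9 were lower (Stmn2, Fabp7 and Ncam1), and of the striated muscle 4 of 11 (Actc1, Acta1, Des and Tnnt1). Over all genes 7.91% were lower, and 1 gene moves the share of lists this short by much. Without Fbx15-null MEF, 10 epithelial and 7 macrophage markers were lower. The part of such cells in the results below was not tested, and fewer cells of a type cannot be told from less RNA per cell.

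Of the genes at the end of the Ras pathway, the MAPK feedback and Ets list had 7 of 22 tested members (31.8%) separated as higher and 1 (4.55%) as lower, beside 2.81% and 7.91% of all genes. Its median log2 difference was 1.39, and that of all genes tested was 0. Fosl1, the AP-1 subunit Fra-1, stood at 1.37 in the Ras MEF line, 1.79 in NIH3T3-HRasV12, -1.38 in Fbx15-null MEF and -1.25 in the unselected MEF. The Ras lines were both high and the MEF samples both low, 2.89 ± 0.27 apart on the log2 scale (SE, adjusted p = 0.11, limma), and in ES and iPS cells Fosl1 reached only -1.76. The Ets factors of the PEA3 group went the same way. Etv1 was at 1.10 and 0.71 in the Ras lines against -1.73 and -2.72 in the MEF samples, and Etv4 at 0.31 and -0.14 against -1.93 and -3.30. Etv5, the dimmest of the 3, was at -3.75 and -3.63 and not well above background in either MEF sample, at least 2.14-fold higher.

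Dusp6, the phosphatase that turns off ERK in the cytoplasm, stood at 3.21 in the Ras MEF line and 4.63 in NIH3T3-HRasV12, against 2.09 and 1.16 in the MEF samples. Both lines lay above both MEF samples, by 2.30 ± 0.69 on average (adjusted p = 0.33), and NIH3T3-HRasV12 was the higher. Dusp4, a nuclear relative, was high in that line only, at 5.05, against 1.74 in the Ras MEF line and 1.93 and 0.33 in the MEF samples, so the groups overlapped. Cyclin D1 (Ccnd1), which drives entry into the cell cycle, was at 6.82 and 6.79 against 5.42 and 5.29, 2.72-fold higher on average. The receptor Epha2 stood at -0.06 and -0.26 against -1.92 and -2.25. The member that went the other way was Spry1, a Sprouty inhibitor of receptor tyrosine kinase signalling, at -3.60 and -4.02 in the Ras lines against 0.96 and 0.69 in the MEF samples, 24.9-fold lower (adjusted p = 0.0885). Its relative Spry2 overlapped between the groups, at -3.35 and -1.75 against -2.46 and -0.79.

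The remaining members of that list were not separated. Both Ras lines stood above both MEF samples by less than 1 at Elk3, Ets1, Hmga1, Hmga2, Ier3, Myc, Phlda1, Plaur, Spred1 and Spred2, and the groups overlapped at Dusp7 and at Il1rl1, a receptor of the interleukin 1 family. Hmga2, a chromatin protein of embryonic and tumour cells, stood at 1.50 and 1.97 in the Ras lines, 0.70 in Fbx15-null MEF and -3.46 in the unselected MEF, so only the last was far below. Cd44, Ets2 and Spry4 were at the floor on all 4 arrays and were not tested. Without Fbx15-null MEF 14 members were separated as higher, and without the Ras MEF line 13.

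The Ras genes and their direct partners gave no separated member: 0 of 28 in either direction, with a median difference of 0.34. Over all genes 2.81% were higher and 7.91% lower, so a list this short would hold few separated members at those shares. That median was 0.01 under normexp background correction and 0.08 without NIH3T3-HRasV12, with 4 higher; without Fbx15-null MEF it was 0.20, with 5 higher and 5 lower. The probe for Hras itself stood at 1.65 in the Ras MEF line, 2.22 in NIH3T3-HRasV12, 1.57 in Fbx15-null MEF and 1.68 in the unselected MEF. The line that carries HRasV12 was the highest, but the groups overlapped, and the difference between them was 0.32 ± 0.31 (adjusted p = 0.641, limma). The files do not say whether this probe reads RNA from the vector. Early response genes of the AP-1 and Egr families, which serum switches on within minutes, also had 0 of 19 members separated, with a median of -0.45. Without Fbx15-null MEF the median was -0.90 with 8 lower, without the Ras MEF line -0.22, and without the unselected MEF 0.00 with 0 lower.

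Genes of cell division were higher in both Ras lines. Of the 50 genes listed, 47 were on the array and all of those were tested; 19 (40.4%) were separated as higher and 0 as lower, and the median difference was 1.64. The median level of the list was 2.48 in the Ras MEF line and 2.33 in NIH3T3-HRasV12, against 1.28 in Fbx15-null MEF and 0.23 in the unselected MEF, and it ran from 1.88 to 2.89 in ES and iPS cells. The unselected MEF stood lowest on this measure, and without it the median difference was 1.10, with 19 members separated. Without Fbx15-null MEF, 45 members were separated, and without NIH3T3-HRasV12, 36.

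Among the regulators, E2f1, an E2F factor that switches on S phase genes, was at -0.27 and 0.26 in the Ras lines against -2.71 and -2.49 in the MEF samples, a difference of 2.60 ± 0.31 (adjusted p = 0.148, limma). Foxm1, a factor for genes of mitosis, stood at 0.67 and -0.46 against -2.06 and -3.10. Both lines were above both MEF samples at each of these genes, which were named because they were separated. Cdc25b, a phosphatase that activates Cdk1, was at 3.44 and 2.39 against 0.98 and 0.78.

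Origins of replication are licensed when Cdt1 and Cdc6 load the MCM helicase onto DNA. Cdt1 stood at 4.79 and 4.67 in the Ras lines and 2.53 and 2.39 in the MEF samples, with hardly any spread within either group (2.27 ± 0.22, adjusted p = 0.113). Cdc45, which joins the helicase when it starts, was at -0.18 and -0.57 against -2.17 and -3.55. Of the helicase subunits, Mcm3 was at 3.86 and 5.08 against 2.67 and 1.64, Mcm5 at 3.17 and 2.72 against 1.64 and 0.23, and Mcm6 at 5.68 and 5.34 against 4.28 and 3.62. Every subunit named was higher in both lines, as its choice among separated genes required, and Mcm6 was already bright in MEF. Cdk1, the mitotic kinase, stood at 1.94 and 1.87 against 0.55 and -0.34. These last 4 genes lie outside the rule for naming genes and are given because they were separated and their promoters hold an E2F motif. Mcm7 and Pola1 also hold the motif but were not separated.

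The promoters of the division genes are shown because E2F factors act through a short element near the start site. The search was for TTTNGCGC on both strands of 300 bases, from 250 before to 50 after the annotated start, in RefSeq promoters of GRCm38.p6. It occurred in 1.38% of 27025 promoters, in 7 of 39 tested division genes with a promoter entry, and in 5 of the 16 among the separated ones. Capitals mark the motif on either strand.
Mcm3, chr1:20820263-20820562, minus strand: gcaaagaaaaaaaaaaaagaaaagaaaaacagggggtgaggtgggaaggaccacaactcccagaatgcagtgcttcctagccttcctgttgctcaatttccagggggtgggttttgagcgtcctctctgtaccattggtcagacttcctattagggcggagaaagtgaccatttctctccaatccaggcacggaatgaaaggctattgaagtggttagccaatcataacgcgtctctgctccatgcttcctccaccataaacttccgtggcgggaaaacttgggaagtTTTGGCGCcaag
Mcm5, chr8:75109259-75109558, plus strand: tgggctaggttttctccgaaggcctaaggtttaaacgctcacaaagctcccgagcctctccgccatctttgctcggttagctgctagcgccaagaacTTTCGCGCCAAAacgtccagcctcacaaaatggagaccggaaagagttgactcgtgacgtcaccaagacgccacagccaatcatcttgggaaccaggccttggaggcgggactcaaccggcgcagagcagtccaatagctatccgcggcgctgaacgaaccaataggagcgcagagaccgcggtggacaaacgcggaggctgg
Mcm6, chr1:128359656-128359955, minus strand: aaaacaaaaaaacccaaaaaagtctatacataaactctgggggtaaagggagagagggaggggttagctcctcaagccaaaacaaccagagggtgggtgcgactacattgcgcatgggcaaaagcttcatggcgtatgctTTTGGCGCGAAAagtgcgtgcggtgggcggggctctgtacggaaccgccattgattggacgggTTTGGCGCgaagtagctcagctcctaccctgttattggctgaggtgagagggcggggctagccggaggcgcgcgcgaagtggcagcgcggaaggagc
Cdt1, chr8:122567765-122568064, plus strand: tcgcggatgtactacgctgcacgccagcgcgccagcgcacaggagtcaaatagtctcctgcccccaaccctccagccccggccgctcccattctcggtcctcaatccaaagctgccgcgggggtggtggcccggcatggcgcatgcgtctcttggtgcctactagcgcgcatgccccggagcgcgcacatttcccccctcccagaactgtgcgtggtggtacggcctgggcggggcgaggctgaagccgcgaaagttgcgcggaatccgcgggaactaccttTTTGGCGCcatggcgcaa
Cdk1, chr10:69352863-69353162, minus strand: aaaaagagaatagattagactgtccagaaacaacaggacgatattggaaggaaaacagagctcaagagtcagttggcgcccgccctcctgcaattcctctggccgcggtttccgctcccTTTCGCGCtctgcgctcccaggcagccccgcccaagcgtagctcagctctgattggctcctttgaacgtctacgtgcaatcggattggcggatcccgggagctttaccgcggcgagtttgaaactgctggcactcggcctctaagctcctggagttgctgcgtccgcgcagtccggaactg
Counted from the start site as 1, the first match begins at 39 in Mcm3, -153 in Mcm5, -110 in Mcm6, 33 in Cdt1 and -131 in Cdk1. Mcm6 holds 3 matches and Mcm5 holds 2 that overlap. The AP-1 element TGANTCA, in 7.93% of all promoters, was in 1 of the 15 tested MAPK and Ets genes that have an entry. It was in 0 of the 4 separated ones, too few to tell whether it was rarer or commoner there.

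Ribosome synthesis genes followed with smaller differences. Of 33 members, 4 (12.1%) were separated as higher and 0 as lower, with a median of 0.84. Nop56, a protein of the particles that methylate ribosomal RNA, stood at 3.19 and 3.06 in the Ras lines against 1.57 and 0.51 in the MEF samples. Nop2, a methyltransferase of ribosomal RNA, was at 4.34 and 4.05 against 2.59 and 2.53, and Polr1b, a subunit of RNA polymerase I, at 0.93 and 0.67 against -0.58 and -1.06. Mybbp1a, another nucleolar protein, was at 2.43 and 2.06 against 0.97 and 0.20. At all 4 genes the unselected MEF was the lowest array. Without it 7 members were higher, without Fbx15-null MEF 10 and without NIH3T3-HRasV12 9.

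**Figure D2:**
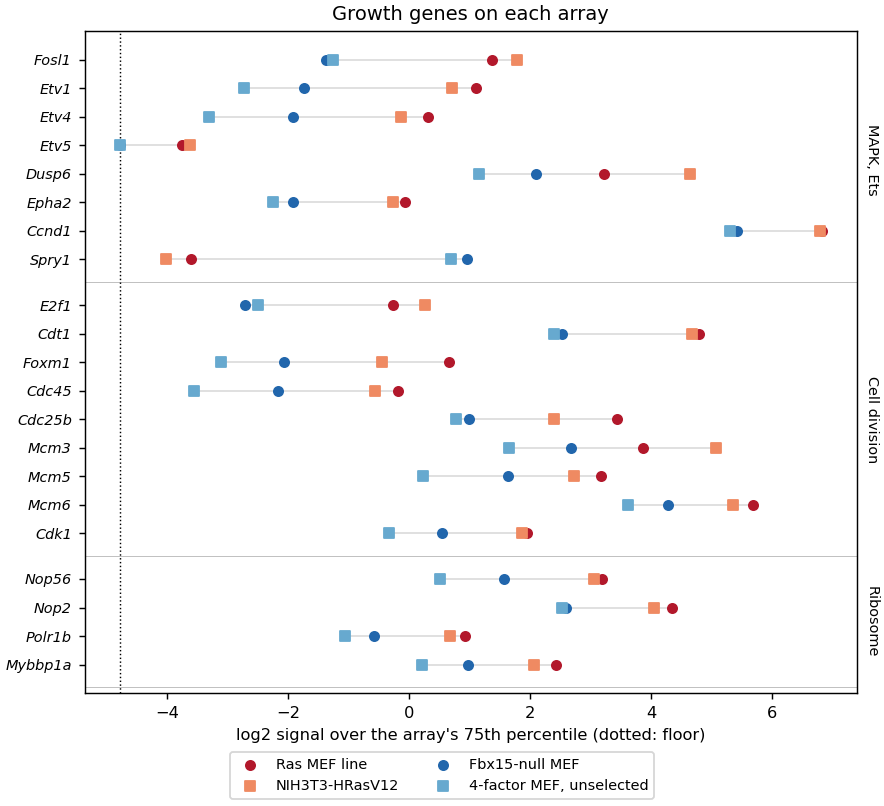
Log2 level of genes of the MAPK and Ets, cell division and ribosome synthesis lists on each of the 4 arrays, relative to the array's 75th percentile, with the floor dotted. Only separated genes are shown, so both Ras lines (red and orange) lie right of both MEF samples (blue) at every gene except Spry1.

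Most of the 15 genes with the widest gaps on the high side belonged to none of the lists. Padi2, an enzyme that turns arginine into citrulline, stood at 1.71 and -0.04 in the Ras lines and at the floor in both MEF samples, at least 49.1-fold higher. Rnf183, a ubiquitin ligase, was at -0.23 and 1.53 against -4.37 and -4.28. Rgs16, a brake on G protein signalling, stood at 2.96 and 3.17 against -0.67 and -0.06, and Ngef, a guanine nucleotide exchange factor, at 2.73 and 5.67 against -0.37 and 0.00. Ngef differed most between the lines, with NIH3T3-HRasV12 the higher.

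Klra4 and Klra13-ps belong to the Ly49 family of lectin-like receptors, known from natural killer cells. Klra4 was at 2.52 and 1.83 in the Ras lines against -1.78 and -2.51 in the MEF samples, and Klra13-ps at 1.45 and 1.11 against -2.76 and -3.44. Members of this family have near-identical sequences, so which of them the probes read is uncertain. Other genes of wide gap were Slc16a13 and Slc22a23, transporter family members, at -0.39 and -0.09 against -4.13 and -3.97 and at 0.31 and 1.71 against -2.30 and -2.10. Hspa4l, a chaperone, stood at 2.14 and 2.01 against -0.46 and -0.42, and Syne3, which ties the nucleus to the cytoskeleton, at 1.38 and 1.14 against -1.63 and -2.02. Phex, a peptidase that guards phosphate balance, and Anks1b were near or at the floor in both MEF samples and at -0.36 and -1.16, and -1.28 and -0.36, in the Ras lines. The smallest adjusted p of the 15 was 0.0898, for Slc16a13.

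**Figure D3:**
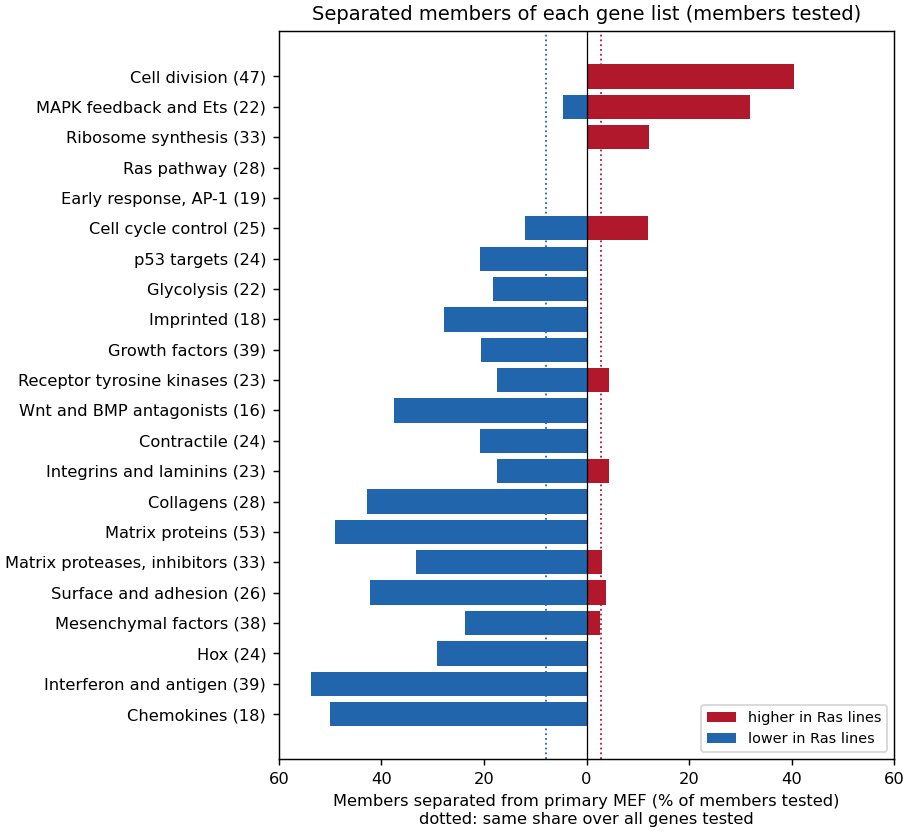
Share of the tested members of each gene list that were separated from primary MEF, higher to the right and lower to the left, with the number of members tested in brackets. Dotted lines mark 2.81% and 7.91% of all genes; cell division reaches 40.4% on the high side, and interferon and antigen genes 53.8% on the low side.

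The largest gap of all belonged to imprinted growth genes. Igf2, the insulin-like growth factor of the embryo, stood at 6.70 in Fbx15-null MEF and 5.93 in the unselected MEF and at the floor in both Ras lines, at least 2189.7-fold lower (adjusted p = 0.0743, limma). H19, the noncoding RNA beside it, was at 4.51 and 5.21 in the MEF samples and at the floor in both Ras lines, at least 799.7-fold lower. Mest was at 2.51 and 3.02 against the floor, at least 187-fold lower. All 3 were bright in primary MEF and unread in both lines. Cdkn1c, an inhibitor of cyclin-dependent kinases from the same imprinted region as Igf2, stood at -4.21 and -4.66 in the Ras lines against 2.51 and 3.25. Grb10, an adaptor that restrains growth, was at -4.78 and -4.56 against -2.83 and -3.12, and Nnat at the floor against -0.27 and -3.53. Of 18 tested members of the imprinted list, 5 (27.8%) were lower and 0 higher, with a median of -1.69; Igf2 was counted among the growth factors. Without NIH3T3-HRasV12 9 were lower, and without the unselected MEF 8.

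Some other growth factors and secreted antagonists were low too. The growth factor list had 8 of 39 members (20.5%) lower and 0 higher, with a median of -0.14. By mean, 18 members were higher and 21 lower, and the median was 0.11 among genes well above background on all 4 arrays, -0.61 without the Ras MEF line and -0.47 without NIH3T3-HRasV12. Without the Ras MEF line the list had 13 lower and 7 higher, and without Fbx15-null MEF 3 were higher. Bmp4 and Inhbb were at the floor in both Ras lines, against -0.30 and -0.49, and 0.71 and -1.09, in the MEF samples. Igf1 was at -4.78 and -2.62 against -0.91 and 1.91, Tgfb2 at -3.33 and -4.78 against -0.49 and -0.27, and Tgfb3 at 0.37 and 2.17 against 4.28 and 4.04. Every one of these ligands was dimmer in both lines, as their choice among genes separated as lower required. Of the Wnt and BMP antagonists, 6 of 16 (37.5%) were lower, with a median of -2.60. The BMP antagonist Nbl1 stood at -3.26 and -0.25 against 2.89 and 4.01, and Dkk3, of the Dickkopf family, at -0.27 and 1.51 against 4.06 and 4.62. Fstl1 was at 0.58 and 1.57 against 5.86 and 6.26, and Chrd, Sfrp1 and Sfrp2 were the other 3.

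Smooth muscle and stress fibre genes held a few very low genes among many that were not separated. Of 24 members, 5 (20.8%) were lower and 0 higher, with a median of -0.70, and 8 were lower without the unselected MEF. Tagln (SM22), an actin-binding protein, stood at -0.74 and 0.44 in the Ras lines and 7.83 and 7.44 in the MEF samples, 220.4-fold lower (adjusted p = 0.0923). Myl9, the regulatory light chain of smooth muscle and non-muscle myosin, was at -0.76 and -1.79 against 6.48 and 6.64. Calponin 1 (Cnn1) was at the floor in both lines and at 4.59 and 3.48 in MEF, at least 451-fold lower. All 3 were bright in MEF and low in both lines, whereas Cnn2 and Actg2 differed less. Cnn2 stood at 3.23 and 3.23 against 4.46 and 4.30, and Actg2 at 1.24 and 1.44 against 3.08 and 2.79.

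Serum response factor drives many of these genes through the CArG box. Over the same 300 bases and both strands, the box was in 1.57% of all promoters, in 3 of 19 contractile genes with an entry, and in 2 of the 3 among the separated ones, Myl9 and Cnn2. Their promoters are shown with the box in capitals.
Myl9, chr2:156775214-156775513, plus strand: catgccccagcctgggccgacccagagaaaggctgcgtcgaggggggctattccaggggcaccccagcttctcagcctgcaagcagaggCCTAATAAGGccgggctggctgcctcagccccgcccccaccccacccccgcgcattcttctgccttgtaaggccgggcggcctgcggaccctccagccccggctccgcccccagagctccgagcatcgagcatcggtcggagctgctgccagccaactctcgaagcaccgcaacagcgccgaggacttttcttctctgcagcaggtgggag
Cnn2, chr10:79988350-79988649, plus strand: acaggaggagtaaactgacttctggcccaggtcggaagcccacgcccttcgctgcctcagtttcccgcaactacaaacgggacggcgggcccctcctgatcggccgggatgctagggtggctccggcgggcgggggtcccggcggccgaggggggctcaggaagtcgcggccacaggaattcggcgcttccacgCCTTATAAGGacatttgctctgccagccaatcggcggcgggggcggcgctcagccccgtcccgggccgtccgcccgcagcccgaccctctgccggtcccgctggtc
The box begins at -161 in Myl9 and at -56 in Cnn2, counted from the start site. Myl9 was 229-fold lower and Cnn2 2.21-fold lower in the Ras lines.

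Extracellular matrix genes made up the broadest low group. Of 53 matrix proteins, 26 (49.1%) were lower and 0 higher, with a median of -2.43; without Fbx15-null MEF the count was 36 and the median -3.29. Postn, a matricellular protein of connective tissue, stood at -4.78 in the Ras MEF line and -3.28 in NIH3T3-HRasV12 against 4.30 and 5.93 in the MEF samples; only NIH3T3-HRasV12 of the lines read it above background. Ogn, a small leucine-rich proteoglycan, was at -2.67 and -4.25 against 3.11 and 5.64. Ltbp2, a microfibril protein, was at -4.36 and -2.07 against 3.98 and 3.32. The Ras lines were near the floor for these, or at it, while both MEF samples were bright. Igfbp7 stood at -1.17 and 0.20 against 6.14 and 5.09, and Mfap4 and Igfbp2 were at the floor in both lines against 0.76 and 4.33, and 0.28 and 4.53.

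Of 28 collagen genes, 12 (42.9%) were lower and 0 higher, with a median of -1.79. Col1a1, a chain of the main fibrillar collagen, stood at 0.41 and 0.44 in the Ras lines and 5.86 and 5.81 in the MEF samples, 42.5-fold lower with little spread in either group (adjusted p = 0.0743). Its partner chain Col1a2 was bright on every array, with some saturated spots, at 7.62 and 5.92 against 8.22 and 8.55. Col1a2 was not separated and is named outside the rule, after its values were seen. Col3a1 was at 1.92 and 3.75 against 6.17 and 6.79, Col5a1 at 2.00 and 2.23 against 5.40 and 4.98, and Col11a1 at -2.55 and -4.38 against 3.07 and 2.22. All 3 belong to or assemble with collagen fibrils, and all were dimmer in both lines, as separated genes must be. Col5a2 and Col7a1 stood 14.4-fold and 12.5-fold lower.

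Among matrix proteases and their inhibitors, 11 of 33 (33.3%) were lower and 1 (3.03%) higher, while 17 were lower without NIH3T3-HRasV12 and 17 without the unselected MEF. The metalloprotease gene Mmp23 was at the floor in both Ras lines against 0.53 and 1.79. Adamts2, which trims procollagen, was at -4.29 and -2.03 against 1.36 and 1.67, whereas its relative Adamts1 was the higher member, at -0.75 and -0.12 against -1.85 and -1.99. Ctss, a cathepsin of macrophages, was at the floor in both lines, -2.25 in Fbx15-null MEF and 2.28 in the unselected MEF, the array with the most macrophage marker signal. Of integrin and laminin subunits, 4 of 23 (17.4%) were lower and 1 (4.35%) higher, and without Fbx15-null MEF 8 were lower and 3 higher. Itga11, a collagen receptor subunit, stood at -0.73 and -4.78 against 3.01 and 4.33. Itga6, a laminin receptor subunit, was the higher one, at 2.86 and 3.54 against 1.24 and 1.30.

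Surface and adhesion genes had 11 of 26 (42.3%) lower and 1 (3.85%) higher, with a median of -2.22, or 0.02 among genes well above background on all 4 arrays. Ly6a (Sca-1) was at the floor in both Ras lines and at 1.11 and 3.80 in the MEF samples, at least 151-fold lower. Thy1, a surface marker of fibroblasts, stood at -4.78 and -4.24 against 0.19 and 0.34, and the mesenchymal cadherin Cdh11 at -1.41 and -1.21 against 3.07 and 1.17. The guidance ligand Sema3a was the member higher in both lines, at 0.15 and 0.71 against -0.95 and -1.78. Of receptor tyrosine kinases, 4 of 23 (17.4%) were lower and 1 (4.35%) higher, and without NIH3T3-HRasV12 7 were lower and 2 higher. The epidermal growth factor receptor Egfr stood at -3.11 and -4.78 against -0.46 and 0.58, and Axl, the Gas6 receptor, at 0.56 and -0.28 against -1.74 and -2.05. Gas6, the ligand of Axl, was the opposite, at -4.78 and -0.37 in the Ras lines against 3.72 and 4.93 in the MEF samples.

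Interferon response and antigen presentation genes held the largest share of lower members of any list but that of the 4 sex-linked genes: 21 of 39 (53.8%), with 0 higher and a median of -2.14. Bst2 (tetherin), which holds enveloped viruses at the cell surface, stood at -1.31 and -1.09 in the Ras lines against 4.09 and 4.54 in the MEF samples, 45.7-fold lower (adjusted p = 0.0816). Psmb8, a subunit of the immunoproteasome, was at the floor in both lines and at -0.26 and 0.75 in MEF, and its partner Psmb9 at the floor against -1.84 and -0.26. Ifih1, a sensor of viral RNA, was at the floor against -1.01 and -1.37. Both Ras lines lay below both MEF samples at these genes, as their choice among separated genes required. Values at the floor cannot show whether the lines were alike, and only Bst2 stood above it in both. Isg15, a ubiquitin-like protein induced by interferon, stood at -2.55 and -2.25 against 3.90 and 0.76, and Igtp at -2.89 and -4.26 against 1.38 and 0.19. Fbx15-null MEF was the brighter MEF sample at both. Under normexp background correction 11 members were separated as lower and the median was -1.10, and among genes well above background on all 4 arrays 8 were separated. The macrophage markers summed to 10.2 in the unselected MEF and 1.01 in Fbx15-null MEF, and their part in this list was not tested.

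Of 18 chemokine genes, 9 (50%) were lower and 0 higher, with a median of -1.51. Cxcl14, a chemokine of fibroblasts and epithelia, was at the floor in both Ras lines and at 2.43 and 4.55 in MEF, at least 309.9-fold lower. Cxcl5 was at the floor against -0.04 and -0.05, and Cxcl10 at the floor against 1.13 and -3.22. Ccl5, Ccl6 and Cxcl16 were at the floor in both lines too, and under normexp background correction 2 members were separated. The macrophage marker sums given above were highest in the unselected MEF, and their part in the chemokine values was not tested.

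A minority of the transcription factors of embryonic mesenchyme and position was separated as lower. Of 38 mesenchymal factors, 9 (23.7%) were lower and 1 (2.63%) higher, with a median of -0.47, and of 24 Hox genes, 7 (29.2%) were lower and 0 higher, with a median of -0.78. By mean, 13 mesenchymal factors were higher and 25 lower, and 2 Hox genes higher and 22 lower. Without the unselected MEF the mesenchymal median was -1.0 with 14 lower. The Hox median was -0.26 without the Ras MEF line, -1.35 with 12 lower without NIH3T3-HRasV12, and -1.25 with 11 lower without the unselected MEF. Among genes well above background on all 4 arrays, the medians were -0.08 and -0.01. Foxd1 was at the floor in both Ras lines and at 0.21 and 0.13 in MEF, and the hindlimb factor Pitx1 at the floor against -0.57 and -0.68. Hoxa10 stood at -4.78 and -3.38 against 0.88 and 1.94, and Hoxb6 at -4.78 and -4.26 against 0.14 and -0.18. Both MEF samples read each of these genes within about 1 log2 unit, and both lines at or near the floor. Over the 35 Hox genes on the array, however, the lines were unlike. Of those, 1 was well above background in the Ras MEF line and 15 in NIH3T3-HRasV12. The MEF samples had 23 and 17. The summed Hox level was 0.266 in the Ras MEF line and 16.6 in NIH3T3-HRasV12, against 18.9 and 12.1 in the MEF samples. Tbx18 was the higher member of the mesenchymal list, at -0.63 and -0.58 against -1.67 and -2.23.

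**Figure D4:**
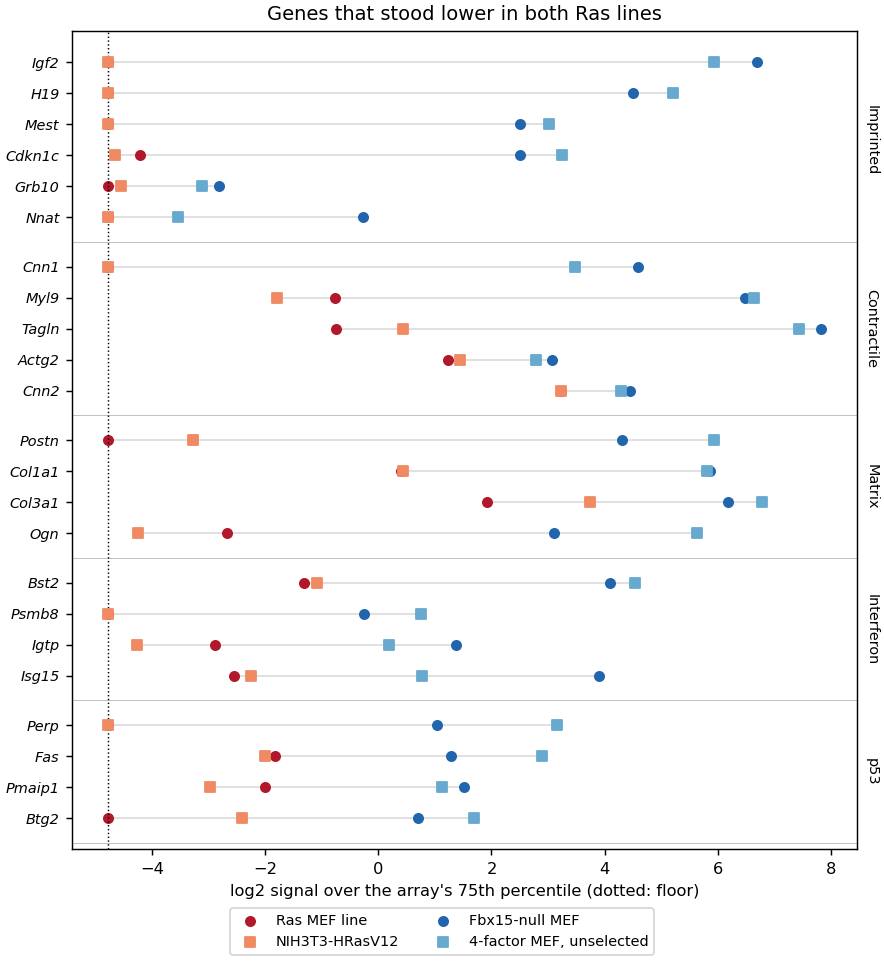
Log2 level of genes of 5 groups on each of the 4 arrays, relative to the array's 75th percentile, with the floor dotted. Only genes separated as lower are shown, so both Ras lines lie left of both MEF samples at every gene. Where only an orange square shows at the floor, the red point of the other line lies under it.

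The p53 protein halts or kills damaged cells. Of 24 p53 targets, 5 (20.8%) were lower and 0 higher, with a median of -0.92. Perp, a membrane protein of p53-dependent death, was at the floor in both Ras lines and at 1.04 and 3.17 in MEF, at least 118-fold lower. The death receptor Fas stood at -1.82 and -2.00 against 1.29 and 2.90, and Pmaip1 (Noxa) at -2.00 and -2.97 against 1.52 and 1.13. Btg2, which slows division, was at -4.78 and -2.40 against 0.70 and 1.68, and Gdf15 at the floor against -2.18 and -0.52. Without NIH3T3-HRasV12 12 members were lower, and without the Ras MEF line 3 were higher. The cell cycle control list had 3 of 25 (12%) in each direction (5 higher and 5 lower without NIH3T3-HRasV12): the cyclin E gene Ccne2, E2f2 and the Polycomb gene Bmi1 were higher, and Gas6, cyclin D2 (Ccnd2) and Tbx2 lower. Ccnd2 stood at 3.41 and 2.12 against 4.93 and 4.62, the opposite of Ccnd1, although it was well above the 75th percentile in both lines.

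The glycolysis list had 4 of 22 members (18.2%) lower and 0 higher, while its median was 0.46. The sign of that median rested on Fbx15-null MEF, without which it was -0.04; without the unselected MEF it was 0.86, with 6 members higher. Slc16a3, the lactate exporter Mct4, was at the floor in both Ras lines and at 3.18 and 5.50 in MEF, at least 557-fold lower, and the ES and iPS arrays read it at 2.19 or above. Aldoc was at the floor in both lines, -2.56 in Fbx15-null MEF and 3.21 in the unselected MEF. The kinases Pfkp and Pfkfb3 stood at -2.06 and -1.28 against 0.01 and 1.31, and at -2.52 and -2.27 against -0.14 and 1.19. Further genes of wide gap on the low side were Ckb (brain creatine kinase), Mdk (the growth factor midkine), Plac9a, Fibin, Rps4l and the keratin gene Krt18. All 6 were at the floor in both lines, and in MEF they ranged from 2.12 for Krt18 to 3.95 for Plac9a. Rps4l resembles other ribosomal protein S4 genes closely, so which of them its probe reads is uncertain.

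The transduced genes and the sex-linked genes complete the named set. None of the 4 factors was separated, nor were any of 7 tested pluripotency genes. Myc stood at 3.98 in the Ras MEF line, 2.50 in NIH3T3-HRasV12, 2.04 in Fbx15-null MEF and 1.75 in the unselected MEF, 1.34 ± 0.63 apart (adjusted p = 0.437). Klf4 stood at 3.68 and 4.20 against 3.59 and 2.83. For both genes the Ras lines lay above both MEF samples by less than 1. The unselected MEF had received both genes and was the lowest array at each. Whether these probes read RNA from the vectors was not tested. Sox2 was at -0.99 in the Ras MEF line, -1.86 in the unselected MEF that had received it, and at the floor in the other 2. Pou5f1 was above the floor only in the unselected MEF, at -3.06. Xist, the RNA of the inactive X, was at the floor in both Ras lines and at 0.51 and -0.35 in MEF. The Y-linked genes Ddx3y, Eif2s3y and Kdm5d were lower too: Ddx3y stood at -4.78 and -3.11 against -1.11 and -0.10, and Eif2s3y at -4.78 and -1.97 against -0.72 and 0.92. Both MEF samples read Xist and Y-linked genes together, while the Ras MEF line read none of these 4 above background. The erythroid markers had 1 of 4 higher, beside 2.81% of all genes. It was the globin gene Hba-a1, at -1.36 and -1.73 against -4.48 and -3.90.

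The Ras lines were not alike at every gene of these lists. By gene, 216 were at least 5-fold higher in the Ras MEF line than in NIH3T3-HRasV12 and 370 at least 5-fold lower, and the MEF samples differed as much from each other at 100 and 391. The genes below were chosen after their values were seen. Cdkn2a, which encodes the p16 and p19Arf inhibitors, stood at 3.44 in the Ras MEF line and at the floor in NIH3T3-HRasV12, whose parent line is known to lack the locus, with -0.30 and 0.20 in the MEF samples. Its neighbour Cdkn2b was at 1.17 and the floor, with 1.04 and 0.39 in MEF. Cdkn1a (p21), a p53 target, was at -2.73 in the Ras MEF line and 2.12 in NIH3T3-HRasV12, with 3.15 and 3.08 in MEF. Of these 3 genes, Cdkn2a and Cdkn2b were low in NIH3T3-HRasV12 and Cdkn1a in the Ras MEF line, whereas Cdkn1c, above, was low in both.

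Other genes were high in NIH3T3-HRasV12 and low in the Ras MEF line. The imprinted ligand Dlk1 stood at 4.76 there and at the floor in the Ras MEF line, with 4.53 and 5.29 in the MEF samples. The proteoglycans decorin (Dcn) and lumican (Lum) were at 4.91 and 1.83 in NIH3T3-HRasV12, at -3.84 and the floor in the Ras MEF line, and from 0.78 for Lum to 4.84 for Dcn in MEF. Kitl, the Kit ligand, was at 2.26 in NIH3T3-HRasV12, above -1.32 and -1.14 in MEF, and at the floor in the Ras MEF line. For these genes a group mean of the Ras lines stands for neither line.

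**Figure D5:**
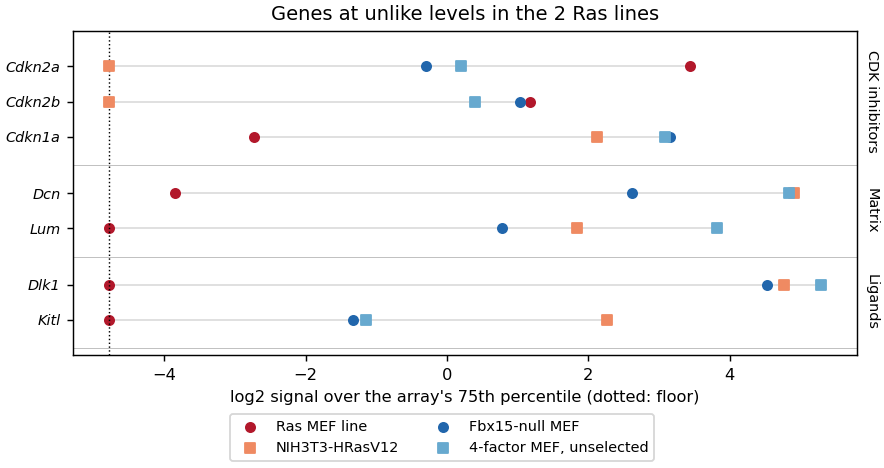
Log2 level of 7 genes at which the 2 Ras lines differed, on each of the 4 arrays, relative to the array's 75th percentile, with the floor dotted. Red points at the floor for Dlk1, Lum and Kitl and orange squares at the floor for Cdkn2a and Cdkn2b show a gene read in only 1 of the lines.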

How the data were processed

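RNA of each sample was labelled with Cy3 and hybridised once to a 1-colour Agilent mouse array. Per the file headers, version 8.5.1.1 of Agilent's Feature Extraction made the deposited intensity of each spot and subtracted its background. The deposited value table holds the same processed intensity, rounded, and served as an alternative.

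Control spots and outlier spots were left out, spots of 1 probe were averaged, and each intensity was divided by its array's 75th percentile over 20868 gene probes. Values under the floor, 3.63% of that percentile, were set to it, and log2 was taken. The floor is the highest, over the arrays, of the lowest signal well above background. A probe was tested if well above background in at least 50% of the arrays of either group, which left 13339. The groups were compared with limma 3.58.1 in R 4.3.3 (lmFit and eBayes) over the 4 arrays, with Benjamini-Hochberg adjustment, 2 residual and 1.28 prior degrees of freedom. A gene is given by its brightest probe over the 4 arrays. Where the dim group was below background on both arrays, folds are lower bounds against the floor, and an SE over floored values is too small.

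Named genes are, in each direction, the 15 separated genes of the widest gap, then up to 6 separated members of each list in each direction, all of the 4 factors, the sex-linked genes, the MAPK list and Hras; Vim, Ptprc, Itgam and the genes the text marks so were chosen after their values were seen. Some genes that the rule picks are not reported here. The members, lists and tests were chosen with earlier results of these data known. Tested on simulated data of the same 13339 probes, the limma comparison recovered 18 of 100 probes changed by 4 log2 units and 42 of 100 changed by 6, with 0 false calls.

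Over the 4 arrays, 52.4% to 56% of probes were well above background and the 75th percentile was 167 to 274 signal units; with arrays, their number limits the precision. Promoters are RefSeq's on GRCm38.p6, matched by gene symbol. Alternatives covered background correction, scaling, the floor, the filter, the value table, all 9 arrays, scan as a block and leaving out each array.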

Additional observations from a re-analysis of the deposited data

How the results depend on the processing

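The count of called probes depended on the setting. The fit on the 4 arrays called 0, and normexp background correction called 41, a floor at 50% of its value 214, an offset in place of the floor 198, no filter 57, a filter on both arrays of a group 127 and a filter on all 4 arrays 47. All 9 arrays together called 863, and scan as a random block over the 9 called 362; that block could not be fitted over the 4 arrays. Median scaling, quantile normalization, the value table, a robust trended fit, a test against a 2-fold change and each left-out array called 0. Probes separated as higher and lower, 376 and 955, became 132 and 487 with normexp, 43 and 467 with a gap of at least 2, and 3294 and 2586 with a gap above 0. Quantile normalization gave 654 higher, and the filter on all 4 arrays left 326 lower. Without each array in turn the counts ran from 610 to 1692 higher and from 1338 to 2122 lower, as a group of 1 array has no spread to overlap with.

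The collagen median of -1.79 became -2.62 with the filter on both arrays, and that of matrix proteins, -2.43, became -3.20 with the lower floor and -1.81 with the filter on all 4 arrays. The interferon median of -2.14 became -1.10 with normexp. Without each array in turn, the matrix protein median ran from -3.29 to -2.11 and that of cell division from 1.10 (without the unselected MEF) to 2.19 (without Fbx15-null MEF). Normexp moved the median of all probes to -0.15 and quantile normalization to 0.17.

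Of 155 separated named genes, 155 had the same sign under the alternatives fitted. Leaving out an array, or changing the floor or filter, cannot turn the sign of a separated gene. Under those settings the result was fixed in advance. Without each array in turn, Sox2 ran from -1.46 (without the Ras MEF line) to 2.33, and was -1.03 without Fbx15-null MEF; Il1rl1 ran from -0.89 (without NIH3T3-HRasV12) to 1.63, and was -0.54 without the unselected MEF. Of 32 lists, 23 kept the sign of their median. The cause was not tested. No paired analysis was possible because the groups' replicate numbers only name samples of unlike origin.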

Other observations

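Some genes were read on every other array of the series and on neither Ras array. There were 234 such genes, and 52 that were well above background on both Ras arrays and on none of the other 7. By probe the counts were 274 and 76 of 20868. They are not a like comparison, because more gene probes were at the floor on the Ras arrays. The shares were 49.3% and 48.4% there and 39.8% to 46.0% on the other 7. Some genes of the first kind were dim elsewhere too, such as Kcnn1, whose lowest level on the other 7 was -4.62. The brightest of the first kind were chosen after their values were seen. F11r, the tight junction protein JAM-A, stood at 1.48 in Fbx15-null MEF and 2.73 in the unselected MEF, and from 2.02 to 3.88 in ES and iPS cells, on the log2 scale of signal over the 75th percentile. Its values in both Ras lines were at the floor, at least 119-fold lower than in MEF (adjusted p = 0.0935, limma). Ckb, a creatine kinase that buffers ATP, ranged from 2.80 to 4.81 in ES and iPS cells and was at the floor in both Ras lines. Genes of the second kind were dimmer, and most of them were not separated. Some, such as Gjb1 and Hamp, were at the floor in both Ras lines as well as in MEF. Among the few that were separated, Podnl1 stood at -2.88 in the Ras MEF line and -2.72 in NIH3T3-HRasV12. The Hippo pathway kinase Lats1, also separated, was at -2.03 and -3.21.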
